A study of Schmidtea mediterranea with 48 samples.

Results

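A set of 62 transcript features was examined whose RNA was already low on day 6 of RNA interference (RNAi) against pax5 and still low on day 18, in worms of the planarian Schmidtea mediterranea, while RNAi against zfp1 left them above the same limit on day 18. The set came out of a table of 28413 features, of which 19094 had a mean of at least 1 RPKM (a read count scaled to feature length and library size, so a level per length) over the 48 libraries. For each RNAi and day, the ratio to the control was taken as log2 of the group mean plus 0.5 RPKM over the control mean plus 0.5 RPKM. Members had a pax5 ratio of -1 or lower (2-fold) on day 6 and on day 18, a zfp1 ratio between -1 and 1 on day 18, and an average sox8 ratio over the 3 days above -0.5. The members were thus chosen by measured pax5, zfp1, sox8 and unc22 levels, and these values are given below as a description only. The pax5 and zfp1 libraries of day 12 and the zfp1 libraries of day 6 entered the choice only through the mean level over all libraries. The tests below therefore use these libraries, and those against unc22 also use control libraries that entered the choice, through the pax5 ratio on day 6 and the sox8 average on days 6 and 12.

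Whole adult worms of the clonal CIW4 line had been fed liver paste mixed with bacteria that make double-stranded RNA, every 3 days for 3 feedings. The RNAi groups were pax5, zfp1 and sox8, with unc22 as a non-targeting control that was fed and sampled in the same way. Each was sampled on days 6, 12 and 18 with 4 libraries of polyA RNA, which gave 12 groups and 48 libraries. All groups thus share the clone, the bacterial food and the feeding, and no group went without double-stranded RNA. The labels do not say whether a replicate was 1 worm, a pool or a repeated library, so the p-values speak only of the variation among the libraries, part of which may be technical. RNA of whole worms cannot tell fewer cells of a type apart from less RNA per cell, and this holds for every value below.

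Planarians replace their tissues throughout life from dividing stem cells, the neoblasts. The epidermis has no dividing cells of its own, and its cells descend from neoblast progeny that pass through stages below the surface before they join it. zfp1 encodes a zinc finger protein that neoblasts of this lineage require, and worms without it stop making epidermal progeny. Genes named pax5 and sox8 carry a paired box and an HMG box, which bind DNA and mark families of transcription factors that set cell fates in many animals. Double-stranded RNA taken up with food leads to the breakdown of matching messenger RNA throughout the worm, and unc22, a muscle gene of nematodes, serves as a control sequence.

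The files pair no identifier with a gene name, so the members are given by identifier with no role, and no sequence is shown. For the same reason the targeted genes, the epidermal and other cell type markers and the tissue label were not checked. The libraries held 6894458 to 65663283 recovered reads. Library deviations from the group means placed replicate 1 of zfp1 day 6 (3.25 SD) and replicate 3 of pax5 day 6 (2.19 SD) apart on the first component, which held 9.95% of that variance. Replicate 2 of sox8 day 6 stood apart on the second (5.67 SD), with replicates 3 and 1 of that group on its other side (-2.455 and -2.199 SD). Without replicate 1 of zfp1 day 6 the member counts of its contrasts were 1 lower and 0 higher against unc22 on day 6, and 17 lower and 4 higher for day 12 against day 6.

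As a group the 62 features were low in pax5 worms from day 6 on. They held 0.0366%, 0.0174% and 0.0142% of the summed RPKM of all features in pax5 worms on days 6, 12 and 18, against 0.130%, 0.108% and 0.128% in unc22 worms. Their summed level in pax5 worms was 294 ± 32.3, 142 ± 10.6 and 121 ± 4.47 RPKM on days 6, 12 and 18, against 1007 ± 65.7, 848 ± 33.3 and 1063 ± 87.6 RPKM in unc22 worms (SD, n = 4). In zfp1 worms the sum was 1033 ± 47.9, 770 ± 46.3 and 905 ± 58.2 RPKM on these days, and in sox8 worms it was 1093 ± 52.0, 873 ± 58.7 and 999 ± 39.0 RPKM. Every pax5 library of a day lay below every library of the other RNAi groups, which on days 6 and 18 restates the choice of members. The zfp1 sum on day 18 rested heavily on 3 features, SMED30006763, SMED30030464 and SMED30024850, which held 41.0% of it and 27.0% of the unc22 sum. The other 59 members summed to 534 ± 27.2 RPKM in zfp1 worms and 777 ± 44.9 RPKM in unc22 worms on day 18, so the zfp1 level was lower relative to unc22 without these 3.

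**Figure D1:**
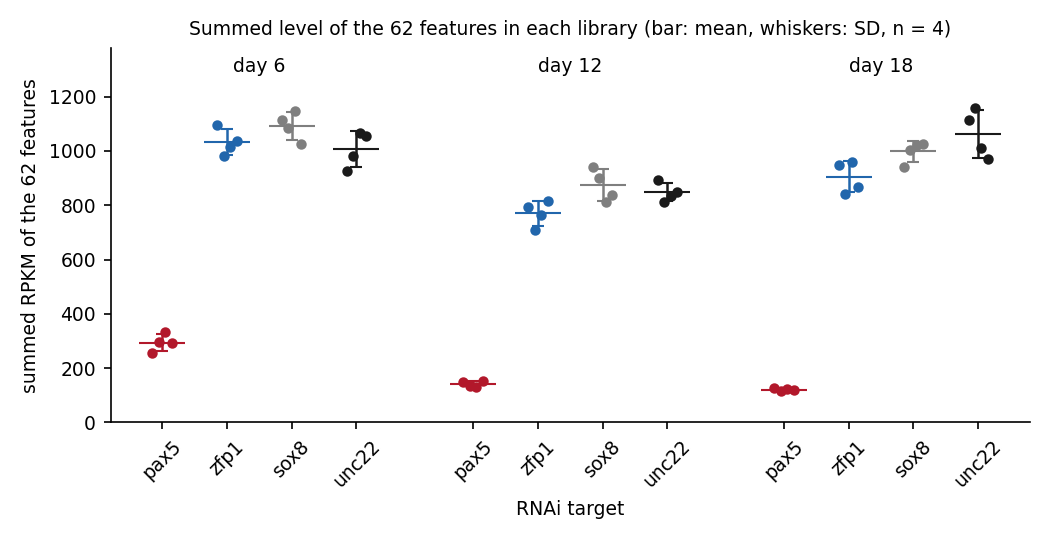
Summed RPKM of the 62 features in each library (points), with the group mean (bar) and SD (whiskers, n = 4), by RNAi target on days 6, 12 and 18. The 4 pax5 libraries of each day lie between 115 and 334 RPKM, below all libraries of the other targets, which lie between 709 and 1157 RPKM.

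In pax5 worms the low levels deepened with time in most members, which describes values that the choice used on days 6 and 18. The median pax5 ratio of the members went through -1.52, -2.21 and -2.57 over the 3 days, and that of the 19094 features through 0.02, 0.01 and 0.02. Of the 19094, 0.707%, 1.14% and 1.41% were at or below -1 on days 6, 12 and 18. The median member kept 28.9%, 12.7% and 8.37% of its unc22 level on days 6, 12 and 18. In 46 of the 62 the ratio was lower on each later day, and in 28 it was at least 1 lower on day 18 than on day 6. Another 18 stayed within 0.5 of their day 6 ratio, and these include members that were held at a partial level throughout.

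SMED30023073 shows the deepening form. In pax5 worms it had 5.67, 7.30, 9.12 and 10.02 RPKM on day 6, 1.09, 0.994, 1.24 and 2.32 RPKM on day 12 and 1.49, 0.837, 0.754 and 0.768 RPKM on day 18. The unc22 worms had 42.4, 45.9, 52.2 and 48.1 RPKM on day 6, 45.5, 41.8, 48.0 and 40.9 RPKM on day 12 and 45.7, 43.7, 47.3 and 46.3 RPKM on day 18. The control was level over the 3 days while the pax5 libraries were low on day 6 and lower still from day 12. SMED30006763, the most abundant member, had 41.1, 47.8, 52.3 and 38.0 RPKM in pax5 worms on day 6, 11.4, 10.1, 7.03 and 14.0 RPKM on day 12 and 5.16, 4.07, 5.01 and 6.45 RPKM on day 18. Its unc22 libraries held 94.0, 106, 136 and 113 RPKM on day 6, 80.9, 72.0, 66.7 and 84.5 RPKM on day 12 and 144, 158, 116 and 115 RPKM on day 18. The pax5 ratio of this feature was -1.31 on day 6 and -4.56 on day 18, and its further decline of -3.25 between these days was the largest of the set.

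SMED30030464 was low from the start. It had 1.69, 4.58, 2.22 and 1.81 RPKM in pax5 worms on day 6, against 63.7, 87.2, 75.7 and 79.8 RPKM in unc22 worms. On day 18 the pax5 worms had 1.72, 1.19, 1.49 and 3.87 RPKM, and the unc22 worms 84.9, 172, 107 and 70.8 RPKM. With ratios of -4.65 and -5.41 it had the lowest value of the set on both days, and its control libraries of day 18 were among the most uneven. SMED30018926 had 0.0465, 0, 0 and 0 RPKM in pax5 worms on day 6, against 1.97, 1.45, 1.52 and 1.5 RPKM in unc22 worms, and rested there on 0 to 2 reads per pax5 library.

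Other members stayed at a partial level. SMED30020349 had 5.40, 5.81, 6.00 and 6.03 RPKM in pax5 worms on day 6, against 14.7, 15.1, 12.2 and 13.8 RPKM in unc22 worms. On day 18 it had 7.29, 9.01, 8.97 and 8.72 RPKM in pax5 worms, against 20.7, 18.6, 20.3 and 19.9 RPKM in unc22 worms. Both groups were higher on the later day, and the ratio was -1.19 on day 6 and -1.18 on day 18. SMED30014221 likewise had a ratio of -1.11 on day 6, -1.31 on day 12 and -1.12 on day 18. SMED30014150 had a ratio of -2.54 on day 6 and -1.85 on day 18, but its pax5 worms kept a like share of the unc22 mean, 13.3% on day 6 and 12.1% on day 18. On day 6 it had 1.43 ± 0.141 RPKM in pax5 worms and 10.7 ± 1.77 RPKM in unc22 worms, and on day 18 it had 0.277 ± 0.157 RPKM in pax5 worms and 2.30 ± 0.258 RPKM in unc22 worms (SD, n = 4). The added 0.5 RPKM weighed more on the later day, when the control itself was low. The pax5 libraries of day 18 held only 3, 2, 3 and 3 reads of SMED30014150, so its share on that day is uncertain.

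**Figure D2:**
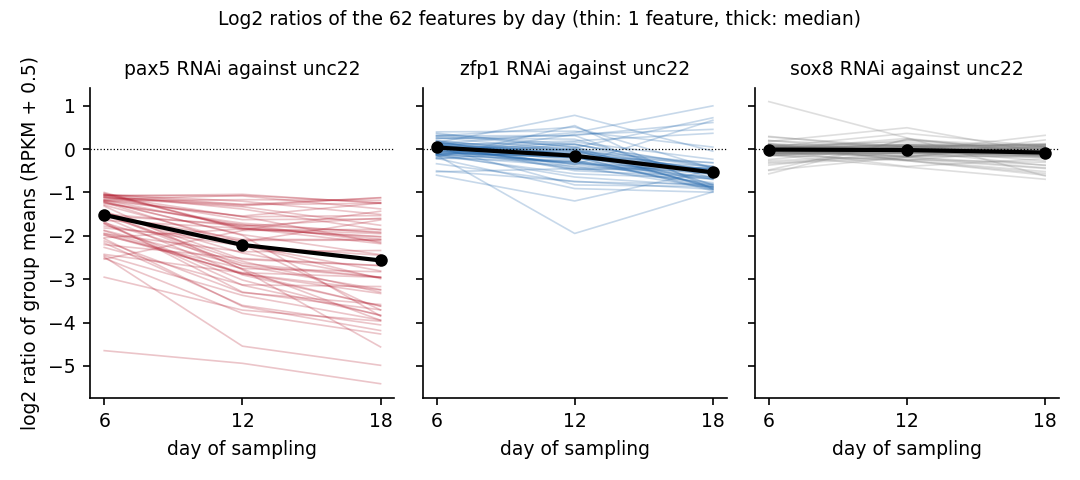
Log2 ratio to unc22 (group mean plus 0.5 RPKM over control mean plus 0.5 RPKM) on days 6, 12 and 18 in pax5, zfp1 and sox8 worms, with a thin line for each of the 62 features and a thick line for their median. The pax5 median goes through -1.52, -2.21 and -2.57, the zfp1 median through 0.04, -0.15 and -0.54, and the sox8 median through -0.01, -0.02 and -0.08.

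Day 12 was the day the choice did not use in pax5 or zfp1 worms, and on it the set was lower in pax5 worms than in zfp1 worms almost without exception. With limma on log2(RPKM + 0.5), a feature counted as called at an adjusted p under 0.05 over the 22667 features with a mean of at least 0.5 RPKM. All 62 members were among these features. Of the 62, 61 were called lower in pax5 than in zfp1 worms and 0 higher, where 7.99% of all tested features were called lower and 10.5% higher. In the same 61 the highest pax5 library lay below the lowest zfp1 library, against 9.47% of all tested features, and the reverse held in 0 members and 12.7% of all. Their log2 differences ran from -4.40 to -0.32 with a median of -2.16, and the median over all tested features was -0.0009. The difference was at or below -1 in 55 members, at or below -2 in 35 and at or below -3 in 13. The 62 features are not 62 independent observations, because they share the same 8 libraries.

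The widest gap between these RNAi groups was in SMED30023073. Its zfp1 libraries of day 12 read 37.4, 37.4, 36.8 and 42.2 RPKM, against the pax5 values of at most 2.32 RPKM given above, with no overlap. Its difference was -4.40 (limma, SE 0.14, adjusted p = 5.41e-27). SMED30030464 had 1.96, 0.784, 0.865 and 2.002 RPKM in pax5 worms on day 12, against 28.0, 27.6, 19.9 and 24.3 RPKM in zfp1 worms. The groups were far apart, and the difference was -3.80 (limma, SE 0.33, adjusted p = 5.07e-12), although the zfp1 libraries were themselves below the unc22 libraries of that day.

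The next 4 in this order were less abundant, with means of 11.6 to 18.5 RPKM in unc22 worms on day 12. SMED30021695 had 0.387, 0.515, 0.580 and 0.492 RPKM in pax5 worms, against 11.7, 12.1, 11.3 and 13.2 RPKM in zfp1 worms, a difference of -3.66 (limma, SE 0.10, adjusted p = 1.28e-29). SMED30016988 had 0.444, 0.562, 0.355 and 0.342 RPKM in pax5 worms, against 11.9, 10.1, 10.99 and 11.2 RPKM in zfp1 worms, a difference of -3.65 (limma, SE 0.11, adjusted p = 5.85e-28). Their zfp1 libraries were even, with SDs of 0.809 and 0.743 RPKM. SMED30035131, one of the longer members with 2635 bases, had 0.809, 0.805, 0.565 and 1.096 RPKM in pax5 worms and 13.6, 13.2, 13.6 and 15.4 RPKM in zfp1 worms, a difference of -3.47 (limma, SE 0.08, adjusted p = 3.64e-31). SMED30031844 had 2.13, 1.13, 1.21 and 1.28 RPKM in pax5 worms and 17.9, 18.2, 16.7 and 20.0 RPKM in zfp1 worms, a difference of -3.30 (limma, SE 0.13, adjusted p = 5.35e-24). In these 4 no pax5 library exceeded 2.13 RPKM and no zfp1 library fell below 10.1 RPKM.

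Among the abundant members the gap varied more. SMED30006763 had 113, 73.7, 90.7 and 102 RPKM in zfp1 worms on day 12, and its difference was -3.12 (limma, SE 0.16, adjusted p = 7.4e-20). SMED30024850 had 6.05, 4.15, 5.32 and 7.08 RPKM in pax5 worms, against 41.4, 26.7, 42.8 and 34.9 RPKM in zfp1 worms, a difference of -2.58 (limma, SE 0.13, adjusted p = 3.35e-20). These 2 held much RNA in zfp1 worms and far less in pax5 worms. SMED30025240 differed by -2.77, with 6.14 ± 0.880 RPKM in pax5 and 44.6 ± 2.78 RPKM in zfp1 worms. SMED30012745 differed by -2.98, with 3.72 ± 0.338 RPKM in pax5 and 32.9 ± 3.53 RPKM in zfp1 worms. SMED30024954 differed by -3.16, with 2.38 ± 0.675 RPKM in pax5 and 24.9 ± 3.38 RPKM in zfp1 worms. Smaller gaps of -1.87, -1.27 and -1.21 were found in SMED30013131, SMED30028036 and SMED30002836. The last of these still had 11.2 ± 0.692 RPKM in pax5 worms, against 26.6 ± 1.08 RPKM in zfp1 worms (SD, n = 4), and limma called all 10 of the most abundant members lower in pax5 (adjusted p of 2.06e-16 or less for SMED30002836, SMED30028036, SMED30025240 and SMED30012745).

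The exception was SMED30001696. It had 4.64, 2.62, 2.46 and 3.30 RPKM in pax5 worms on day 12, against 3.83, 3.61, 3.49 and 5.58 RPKM in zfp1 worms and 7.70, 6.67, 7.22 and 7.36 RPKM in unc22 worms. The pax5 and zfp1 libraries overlapped, and both lay below the unc22 libraries. Its pax5 against zfp1 difference was -0.32 (limma, SE 0.19, adjusted p = 0.283), which did not pass the test. Against unc22 it was lower in pax5 worms, at -1.08 (limma, SE 0.19, adjusted p = 6.95e-05), and in zfp1 worms, at -0.76 (limma, SE 0.19, adjusted p = 0.00442).

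SMED30010082 was called by a narrow margin. It had 0.361, 0.274, 0.487 and 0.292 RPKM in pax5 worms on day 12, against 0.553, 0.601, 0.515 and 0.744 RPKM in zfp1 worms and 1.29, 1.69, 1.66 and 1.67 RPKM in unc22 worms. Its pax5 libraries lay just under the zfp1 libraries, with a difference of -0.37 (limma, SE 0.13, adjusted p = 0.0394). The call was lost in 9 of the alternatives tried, among them a fit restricted to the compared groups (adjusted p = 0.175) and the fits without pax5 day 12 replicates 1, 2 and 4 (0.068, 0.116 and 0.102) or zfp1 day 12 replicates 1, 2 and 4 (0.0517, 0.0698 and 0.127). The other small gaps were called throughout. They were -0.79 in SMED30007454, -0.80 in SMED30035425, -0.88 in SMED30014221 and -0.88 in SMED30018339. SMED30018339 had 4.79, 4.67, 4.15 and 5.25 RPKM in pax5 worms and 9.26, 7.34, 9.74 and 10.1 RPKM in zfp1 worms, a difference of -0.88 (limma, SE 0.09, adjusted p = 1.9e-10). Its zfp1 libraries had come down as well, as shown further on.

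Against unc22 on day 12, all 62 members were called lower in pax5 worms and 0 higher, where 4.20% of all tested features were called lower and 2.06% higher. The pax5 libraries lay wholly below the unc22 libraries in all 62, against 7.76% of all tested features. The median log2 difference was -2.22 (range -4.91 to -1.08), and it was -0.0020 over all tested features. The pax5 libraries of day 12 took no part in the choice beyond the mean level, while the unc22 libraries of that day entered it through the sox8 average. SMED30030464 led with -4.91 (limma, SE 0.33, adjusted p = 4.66e-15) and SMED30023073 followed with -4.59 (limma, SE 0.14, adjusted p = 1.01e-27). The smallest falls belonged to members held at a partial level, such as SMED30007454 with 4.73, 4.82, 4.06 and 4.81 RPKM in pax5 worms and 10.7, 9.20, 10.3 and 11.1 RPKM in unc22 worms, a difference of -1.08.

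**Figure D3:**
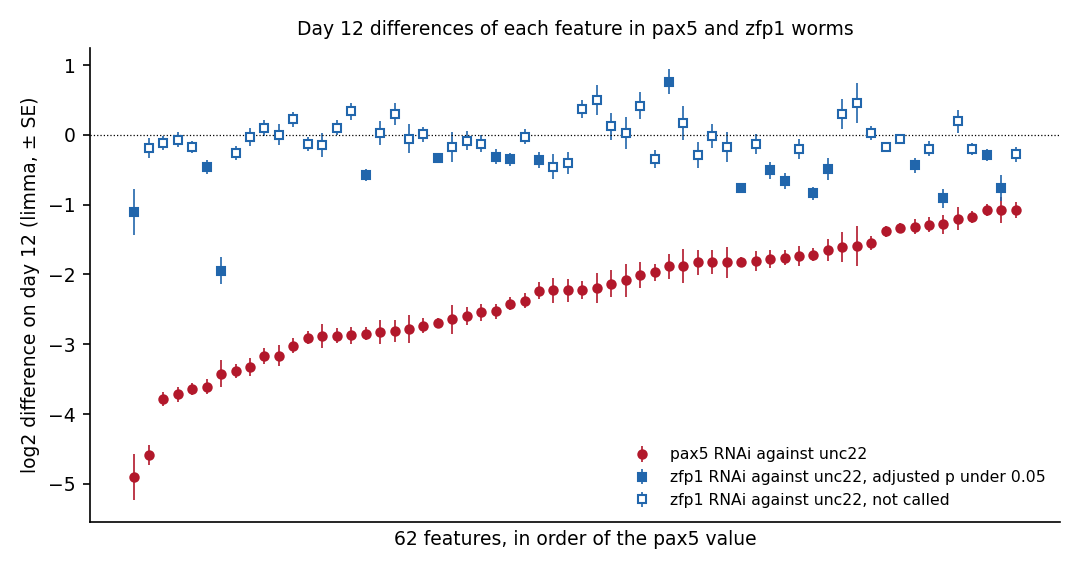
Log2 differences on day 12 (limma, log2(RPKM + 0.5), bars are SE) of the 62 features in order of their pax5 value, for pax5 against unc22 (circles) and zfp1 against unc22 (squares, filled where the adjusted p was under 0.05). All pax5 values lie between -4.91 and -1.08, and the zfp1 values lie between -1.95 and 0.76, with 17 filled squares below 0 and 1 above.

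On day 6 the set was near its control level in zfp1 worms. The median difference of zfp1 against unc22 was 0.03 (range -0.60 to 0.41), and 0.0032 over all tested features. Limma called 1 member lower and 0 higher, against 0.631% lower and 0.728% higher of all tested features. At an unadjusted p under 0.05 the members numbered 3 lower and 5 higher. The share of all tested features at that unadjusted limit was not taken, so these counts have no reference. The count of 5 was 1 without unc22 replicate 1, 2 without zfp1 replicate 1 or 4, 3 without zfp1 replicate 3 or unc22 replicate 2, 8 without zfp1 replicate 2 and 9 in a fit restricted to the compared groups, and the count of 3 was 7 with voom. The libraries did not overlap in 3 members that were lower and 2 that were higher, against 2.35% and 3.05% of all tested features. The unc22 libraries of day 6 helped to choose the members, since a high control makes a low pax5 ratio.

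The member called lower was SMED30006353. It had 11.7, 9.78, 11.4 and 10.8 RPKM in zfp1 worms on day 6, against 13.6, 13.3, 14.99 and 13.8 RPKM in unc22 worms. All zfp1 libraries lay below the unc22 libraries, and the difference was -0.34 (limma, SE 0.07, adjusted p = 0.00656). A fit restricted to the compared groups gave an adjusted p of 0.0635. The other low values on day 6 were -0.60 in SMED30030464, -0.53 in SMED30021783 and -0.49 in SMED30001696, none of them called (adjusted p = 0.522, 0.164 and 0.279 by limma). SMED30030464 had 46.6, 60.8, 43.2 and 50.7 RPKM in zfp1 worms, all below the unc22 libraries of day 6 given above, and was called in the restricted fit (adjusted p = 0.0458). The highest values were 0.41 in SMED30010453, 0.36 in SMED30011343, 0.33 in SMED30019979 and 0.31 in SMED30006763, with adjusted p of 0.407, 0.447, 0.169 and 0.485 by limma. SMED30019979 had 29.0, 23.0, 28.7 and 29.5 RPKM in zfp1 worms and 20.2, 21.9, 22.1 and 22.5 RPKM in unc22 worms, without overlap, and was called with voom on recovered reads (adjusted p = 0.0321).

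On day 12 part of the set was lower than the control in zfp1 worms too. Limma called 17 members lower and 1 higher against unc22, where 8.14% of all tested features (1844) were called lower and 5.01% (1135) higher, and 1720 and 2020 features with quantile normalization. At an unadjusted p under 0.05 the members numbered 25 and 5, the 5 being 3 without zfp1 replicate 4. The share of all tested features at that unadjusted limit was not taken. The zfp1 libraries lay wholly below the unc22 libraries in 24 members and wholly above in 1, against 10.9% and 7.87% of all tested features. The median difference of the 62 was -0.16 (range -1.95 to 0.76), and -0.0088 over all tested features. The 17 members called lower had a median of -0.51. For pax5 against zfp1 the median of these 17 was -1.27, and 16 of them were also called lower in pax5 than in zfp1 worms.

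SMED30031294 moved most. It had 2.35, 2.60, 2.67 and 2.79 RPKM in zfp1 worms on day 12, against 11.5, 10.98, 11.4 and 11.9 RPKM in unc22 worms. The 2 groups were wide apart, and the difference was -1.95 (limma, SE 0.19, adjusted p = 9.97e-11). On day 6 the zfp1 worms had 14.3, 11.2, 10.9 and 12.6 RPKM and the unc22 worms 11.3, 12.7, 13.1 and 16.9 RPKM, which overlapped. On day 18 the zfp1 worms were at 4.32, 5.73, 8.08 and 3.83 RPKM and the unc22 worms at 10.7, 13.1, 10.9 and 10.8 RPKM. With 1.23, 0.776, 0.0612 and 0.755 RPKM, the pax5 worms of day 12 were lower still, a difference from zfp1 of -1.47 (limma, SE 0.19, adjusted p = 7.74e-08). The zfp1 level of this member was thus lowest on day 12, the day between those of the choice.

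SMED30018339 had 9.26, 7.34, 9.74 and 10.1 RPKM in zfp1 worms on day 12, against 17.0, 16.8, 16.9 and 15.6 RPKM in unc22 worms, a difference of -0.84 (limma, SE 0.09, adjusted p = 1.08e-09). On day 6 it had 28.8, 23.4, 23.3 and 26.1 RPKM in zfp1 worms and 23.4, 21.97, 26.5 and 26.6 RPKM in unc22 worms. The groups overlapped on day 6 and were apart on day 12. SMED30010082, near the lower limit of the level asked for, had a zfp1 difference of -0.91 (limma, SE 0.13, adjusted p = 9.15e-07) on day 12. SMED30030464 had 28.0, 27.6, 19.9 and 24.3 RPKM in zfp1 worms on day 12, against 85.1, 47.1, 68.8 and 30.5 RPKM in unc22 worms, a difference of -1.11 (limma, SE 0.33, adjusted p = 0.0187). Its call was lost without zfp1 day 12 replicate 3 (adjusted p = 0.0654) or unc22 day 12 replicate 1 or 3 (0.0988 and 0.0694) and in the restricted fit (0.059).

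The further members called lower in zfp1 worms on day 12 had moderate values. They were -0.76 in SMED30001696, -0.76 in SMED30006353, -0.66 in SMED30029581, -0.57 in SMED30007566 and -0.51 in SMED30018935. Smaller still were -0.49 in SMED30019323, -0.46 in SMED30032163, -0.44 in SMED30014221, -0.36 in SMED30013131, -0.35 in SMED30011587, -0.33 in SMED30002671, -0.31 in SMED30034307 and -0.29 in SMED30007454. SMED30006353 had 8.09, 8.88, 8.21 and 10.6 RPKM in zfp1 worms and 12.8, 15.6, 17.0 and 16.4 RPKM in unc22 worms, the clearest of these, with -0.76 (limma, SE 0.07, adjusted p = 5.58e-11). The calls of 4 of them depended on single libraries of day 12 and, in 3, on the processing. That of SMED30007454 was lost without zfp1 replicate 2 or unc22 replicate 1 or 4 (adjusted p = 0.0649 to 0.0904), and that of SMED30013131 without any 1 of the zfp1 replicates or unc22 replicate 1, 2 or 3 (0.0557 to 0.116) and with no filter on the mean (0.0503). That of SMED30019323 was lost without zfp1 replicate 1 or 3 or unc22 replicate 1, 2 or 3 (0.0558 to 0.154), with pseudocount 0.1 (0.0828) and with voom (0.0598). That of SMED30034307 was lost without zfp1 replicate 1, 2 or 4 or unc22 replicate 1, 3 or 4 (0.0543 to 0.124) and with quantile normalization (0.0576).

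The member called higher was SMED30014150. It had 4.06, 2.24, 4.32 and 3.95 RPKM in zfp1 worms on day 12, against 2.58, 1.62, 1.82 and 1.65 RPKM in unc22 worms. The lowest zfp1 library lay below the highest unc22 library, and the difference was 0.76 (limma, SE 0.18, adjusted p = 0.00215). Next came SMED30002026 (0.49, adjusted p = 0.136 by limma), SMED30029949 (0.46, 0.338) and SMED30010453 (0.42, 0.147), none called. SMED30002026 had 9.73, 9.46, 15.1 and 11.8 RPKM in zfp1 worms and 6.08, 8.63, 8.58 and 8.61 RPKM in unc22 worms, the 1 member whose zfp1 libraries lay wholly above the control. With pseudocount 1, a mean of at least 2 RPKM, quantile normalization or median ratio scaling, 3 members were called higher.

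Within zfp1 worms, 19 members were called lower and 3 higher on day 12 than on day 6, where 11.9% of all tested features were called in each direction. The zfp1 libraries of day 12 lay wholly below those of day 6 in 18 members and wholly above in 2, against 11.4% and 9.84% of all tested features. The median difference was -0.14 (range -2.03 to 0.61), and -0.0054 over all tested features. In 16 of the 19 the unc22 mean was also lower on day 12 than on day 6, with a median log2 ratio of -0.56 over the 19. SMED30024850 was lower on day 12 in both, with 41.4, 26.7, 42.8 and 34.9 RPKM on day 12 and 135, 99.6, 118 and 109 RPKM on day 6 in zfp1 worms, and 30.3, 23.1, 26.3 and 31.9 RPKM on day 12 and 92.0, 97.1, 122 and 113 RPKM on day 6 in unc22 worms. It differed between the days by -1.66 (limma, SE 0.13, adjusted p = 1.01e-13) in zfp1 worms, without overlap. The members called higher were SMED30011587, SMED30024730 and SMED30002836, with 0.61, 0.42 and 0.31.

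The change in the zfp1 effect itself, the zfp1 against unc22 difference on day 12 less that on day 6, was tested after the data had been seen. The unc22 libraries of both days had entered the choice. It was called more negative in 7 members and more positive in 0, against 2.70% and 0.675% of all tested features (612 and 153, or 609 and 436 with quantile normalization). An unadjusted p under 0.05 was found in 17 and 2 members, and the share of all tested features at that limit was not taken. The median over the members was -0.16, and -0.0128 over all tested features. SMED30031294 led with -1.82 (limma, SE 0.27, adjusted p = 6.37e-06) and SMED30018339 followed with -0.88 (limma, SE 0.13, adjusted p = 3.38e-06). The others were SMED30010082 (-0.70), SMED30014221 (-0.63), SMED30029581 (-0.55), SMED30006353 (-0.42) and SMED30002671 (-0.29). In SMED30031294 and SMED30018339 no single library left out ended the call, whereas SMED30010082 lost it without unc22 day 6 replicate 4 (adjusted p = 0.052). SMED30006353 lost it in the restricted fit (0.101). SMED30029581 lost it without zfp1 replicate 1, 2 or 3 or unc22 replicate 1, 3 or 4 of day 12, and without zfp1 replicate 1 or 4 or unc22 replicate 1, 2 or 3 of day 6 (adjusted p = 0.0517 to 0.131), with voom (0.0722) and in the restricted fit (0.101). SMED30002671 lost it without any 1 of the libraries of both groups (0.0518 to 0.115) except zfp1 replicate 4 of day 12 and zfp1 replicates 2 and 4 of day 6. It also lost it with pseudocount 0.1 (0.0631), no filter (0.0566), median ratio scaling (0.0631), the replicate block (0.0519) and the restricted fit (0.051).

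On day 18, which the choice used, the zfp1 level was held in part rather than kept. The zfp1 ratio was below 0 in 55 of the 62 members and in 9203 of the 19094 features. It was at or below -0.5 in 39 members, a limit not counted over all features. The median of the members was -0.54, against 0.01 over the 19094 features. Of the 19094, 2.53% were at or below -1, which the choice barred in members. SMED30028036 had 34.9, 28.9, 31.2 and 31.5 RPKM in zfp1 worms, against 45.5, 45.4, 43.2 and 43.6 RPKM in unc22 worms, a ratio of -0.48. Pax5 worms had 12.3, 12.7, 13.2 and 12.9 RPKM of it on that day. Its zfp1 libraries lay between those of pax5 and unc22 worms without overlap with either. SMED30025240 had 37.8, 34.9, 40.6 and 48.6 RPKM in zfp1 worms and 65.2, 59.5, 52.6 and 55.7 RPKM in unc22 worms, a ratio of -0.52.

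In 7 members the zfp1 ratio of day 18 was above 0. SMED30024850 had the highest, 0.995, with 92.1, 75.5, 94.2 and 95.3 RPKM in zfp1 worms and 45.8, 48.8, 44.0 and 39.4 RPKM in unc22 worms. SMED30006763 had 185, 164, 261 and 206 RPKM in zfp1 worms, all above the unc22 libraries given above, and a ratio of 0.61. These are also 2 of the most abundant members. SMED30011343 had 13.2, 15.8, 15.1 and 12.7 RPKM in zfp1 worms and 9.60, 10.2, 7.05 and 6.87 RPKM in unc22 worms (0.72). SMED30003035 had 7.31, 9.56, 10.3 and 7.28 RPKM in zfp1 worms and 5.69, 4.76, 5.63 and 4.94 RPKM in unc22 worms (0.66). SMED30024730 had 12.7, 8.15, 8.12 and 9.28 RPKM in zfp1 worms and 7.38, 7.04, 7.11 and 5.86 RPKM in unc22 worms (0.45). In these 5 members the zfp1 libraries of day 18 all lay above the unc22 libraries, while the pax5 libraries had means of 2.94, 5.17, 0.0785, 0.565 and 0.0963 RPKM in the order given. The 5 were picked among members with a zfp1 ratio above 0, and the share of all features without overlap on day 18 was not taken. The ratios of SMED30015916 and SMED30010453 were 0.36 and 0.05, and their zfp1 and unc22 libraries overlapped.

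**Figure D4:**
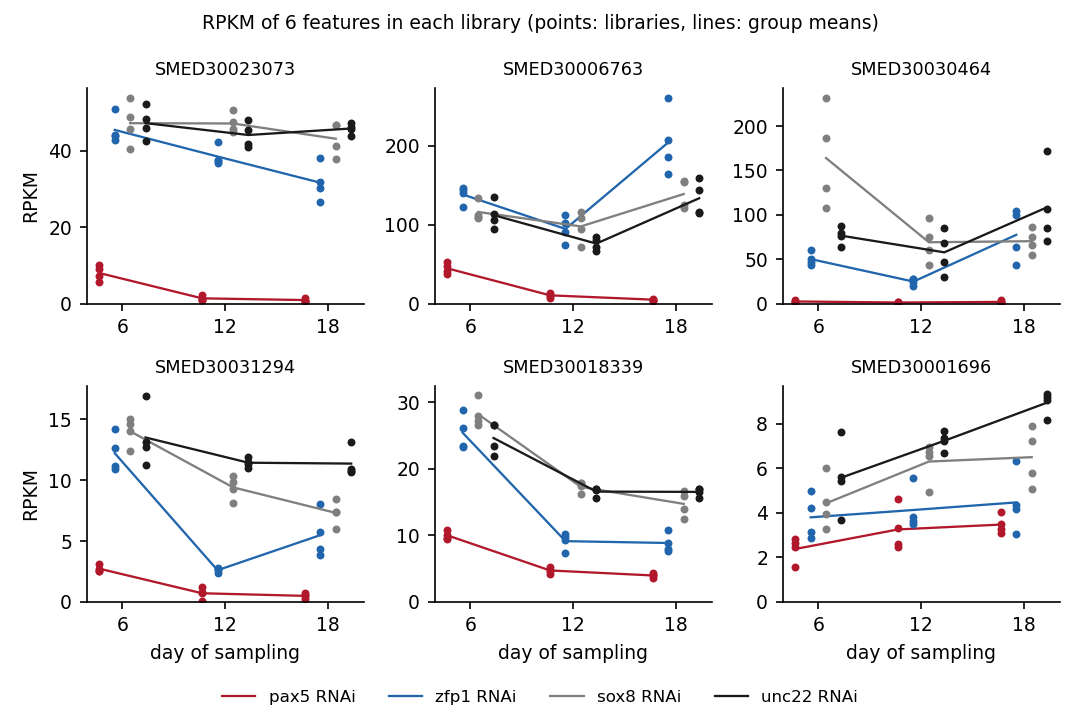
RPKM of 6 features on days 6, 12 and 18 in each library (points) with group means (lines) for pax5, zfp1, sox8 and unc22 RNAi. SMED30023073, SMED30006763 and SMED30030464 show zfp1 libraries far above pax5 libraries on all days, SMED30031294 and SMED30018339 show zfp1 libraries below unc22 from day 12, and in SMED30001696 the zfp1 libraries reach into the pax5 range.

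In sox8 worms the set stayed near the control, as the choice required. The median sox8 ratio was -0.01, -0.02 and -0.08 on days 6, 12 and 18. SMED30030464 departed most on day 6, with 186, 129.8, 232 and 108 RPKM in sox8 worms and a ratio of 1.09, but had a ratio of -0.62 on day 18. Its sox8 libraries of day 6 were all above the unc22 libraries of that day. The lowest sox8 ratios on day 18 were -0.70 in SMED30017923, -0.62 in SMED30030464 and -0.60 in SMED30031294.

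The members also differed in their own course in unc22 worms, which the choice used on days 6 and 18. The unc22 level of day 18 was within 0.5 of that of day 6 (log2 of means plus 0.5 RPKM) in 39 members, at least 1 lower in 6 and at least 1 higher in 1. Of the 19094 features, 126 were at least 1 lower and 74 at least 1 higher. The 6 lower members were SMED30024954, SMED30022783, SMED30021619, SMED30014150, SMED30016577 and SMED30024850. SMED30024954 had 45.1, 46.4, 44.8 and 56.3 RPKM on day 6, 24.7, 23.5, 24.9 and 25.8 RPKM on day 12 and 15.5, 12.4, 14.2 and 14.8 RPKM on day 18 in unc22 worms. SMED30022783 had 26.7, 21.7, 18.7 and 28.5 RPKM on day 6, 8.70, 7.36, 8.52 and 6.96 RPKM on day 12 and 6.21, 5.59, 3.76 and 4.30 RPKM on day 18 there. SMED30021619, the shortest member with 215 bases, had 15.7, 14.8, 10.2 and 17.8 RPKM on day 6, 8.21, 6.84, 8.56 and 7.98 RPKM on day 12 and 3.70, 4.18, 2.88 and 1.45 RPKM on day 18. In all 3 the libraries of the days were wholly apart in unc22 worms, and zfp1 worms took the same downward course. In zfp1 worms SMED30024954 had 41.2, 52.0, 34.8 and 35.8 RPKM on day 6, 20.4, 28.2, 26.6 and 24.2 RPKM on day 12 and 10.7, 8.04, 6.71 and 6.14 RPKM on day 18. The opposite course was that of SMED30011587, with 3.68 ± 0.153, 3.77 ± 0.849 and 3.04 ± 0.308 RPKM in pax5 worms on the 3 days, against 11.03 ± 1.11, 22.01 ± 0.883 and 27.1 ± 1.38 RPKM in unc22 worms (SD, n = 4). Its level in unc22 worms was higher on each later day, while in pax5 worms it stayed below 4 RPKM on average.

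The features nearest each limit of the choice lay close to it at some limits and farther off at others. Closest inside the limit of -1 on day 6 of pax5 were SMED30018410 (-1.001), SMED30014391 (-1.02) and SMED30025089 (-1.04), and closest outside were SMED30034698 (-0.99), SMED30001477 (-0.99) and SMED30023298 (-0.98). On day 18 of pax5, SMED30014221 (-1.12), SMED30019294 (-1.12) and SMED30020349 (-1.18) were inside, and SMED30026134 (-0.97), SMED30005462 (-0.92) and SMED30011585 (-0.76) outside. The day 6 limit was the tighter of the pax5 limits, with neighbours within 0.05 of it. At the lower zfp1 limit, SMED30010082 (-0.997), SMED30031294 (-0.99) and SMED30017923 (-0.97) were inside, and SMED30023867 (-1.02), SMED30029728 (-1.04) and SMED30032237 (-1.05) outside. At the upper zfp1 limit, SMED30024850 (0.995), SMED30011343 (0.72) and SMED30003035 (0.66) were inside, and SMED30007443 (1.34) and SMED30032382 (1.63) outside. The sox8 average was -0.42, -0.35 and -0.33 in SMED30017923, SMED30035233 and SMED30021783, and -0.55 in SMED30025879 outside. In mean level, SMED30010082 (1.02 RPKM), SMED30006624 (1.07 RPKM) and SMED30018926 (1.099 RPKM) were inside, and SMED30006228 (0.911 RPKM), SMED30019987 (0.783 RPKM) and SMED30001016 (0.614 RPKM) outside.

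Of 126 features that met both pax5 limits, 62 are the members, and 49 met the sox8 limit but had a zfp1 ratio of -1 or lower on day 18. Their day 12 contrasts are set beside those of the members as a description. The pax5 and zfp1 libraries of that day entered neither choice except through the mean level, and the unc22 libraries entered both through the sox8 average. For pax5 against zfp1 on day 12, 61 of 62 members were called lower with a median of -2.16, and of the 49, 41 were called lower and 1 higher with a median of -1.58. For zfp1 against unc22 on day 12, 17 of 62 members were called lower with a median of -0.16, and 36 of the 49 with a median of -0.71. For pax5 against unc22 on day 12 all 62 members and all 49 others were called lower, with medians of -2.22 and -2.34. Whether the sets differ was not tested, since the zfp1 values of day 18 separate them by choice.

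The members are of middling level and somewhat short. Their median level in unc22 worms was 9.60 RPKM (range 1.56 to 107), against 9.02 RPKM over the 19094 features. Their median inferred length was 788 bases (range 215 to 3698), against 1217 bases. Low levels limit how far a fall can be followed. In pax5 worms on day 18, 11 members had at most 3 reads in every library, and 2, SMED30021619 and SMED30035233, had 0 reads in all 4. A floor of 3 reads per library stands for 0.704 RPKM in SMED30021619 and 0.270 RPKM in SMED30035233, against unc22 levels of 3.05 ± 1.196 and 1.63 ± 0.685 RPKM (SD, n = 4), and covers counting error only. On day 12, 24 members had at least 20 reads in every pax5 library, and 45 in every zfp1 library. The median SD was 27.6% of the mean in pax5 and 12.2% in zfp1 worms on that day. Members with a near-identical copy elsewhere in the table remain uncertain, since the handling of reads with several matches is not given in the sources used here.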

How the data were processed

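PolyA RNA of whole worms was sequenced from TruSeq libraries, per the labels' protocols. The authors deposited 1 table of RPKM values for 28413 features and 48 libraries. The submitters' processing notes name edgeR, CASAVA 1.8.2 and Bowtie without saying what each did, and the reference and annotation are not given in the sources used here. The labels' shared protocol also mentions sorted cells, but each library is labelled as whole worm tissue. RPKM removes feature length, and a fold change on log2(RPKM + 0.5) understates that of low features.

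The members, lists and tests were chosen with earlier results of these data known. Whole reads were recovered from the deposited RPKM values for 100.0% of features (28413, tolerance 0.0001, largest deviation 4.06e-07), which gave depth (median 23162610.5 reads per library) and inferred lengths. The test was limma 3.58.1 in R 4.3.3 (trend and robust options, 12 group means, 22667 features with a mean of at least 0.5 RPKM), two-sided, with Benjamini-Hochberg adjustment within each contrast, and a call is an adjusted p under 0.05. It was tested on simulated data. Python 3.11.15, numpy 2.4.6, pandas 2.3.3 and matplotlib 3.10.9 did the rest.

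Named members were the 10 highest in unc22 worms, the 6 most and 6 least negative for pax5 against zfp1 on day 12, the 4 at each end for zfp1 against unc22 on days 6 and 12, the 3 nearest each limit of the choice and any member not called. Further members were named after their values were seen. Other pseudocounts (0.1 and 1), filters, scalings, voom on recovered reads, fits of only the groups compared, a replicate block and single libraries left out were tried. Marker lists were not used, for want of names, and p-values of voom fits come from recovered reads.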

Additional observations from a re-analysis of the deposited data

Results flagged for a closer look

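In 39 members and in the summed level, 207 groups of 4 libraries were examined for a library far from the other 3, and 18 stood out, where chance gives about 1 in 20. In pax5 worms on day 12, SMED30025240 was highest in replicate 4 (7.46 RPKM, others 5.57 to 5.78), SMED30002836 in replicate 1 (12.3 RPKM, others 10.8 to 10.9), SMED30031844 in replicate 1 (2.13 RPKM, others 1.13 to 1.28) and SMED30017923 in replicate 4 (0.276 RPKM, others 0), while SMED30007454 was lowest in replicate 3 (4.06 RPKM, others 4.73 to 4.82). In zfp1 worms on day 12, SMED30023073 was highest in replicate 4 (42.2 RPKM, others 36.8 to 37.4), SMED30001696 in replicate 4 (5.58 RPKM, others 3.49 to 3.83) and SMED30018410 in replicate 2 (3.04 RPKM, others 2.01 to 2.14), while SMED30019979 was lowest in replicate 2 (20.0 RPKM, others 24.4 to 25.2). In zfp1 worms on day 6, SMED30023073 (50.9 RPKM, others 42.8 to 43.9) and SMED30010453 (25.8 RPKM, others 17.6 to 19.0) were highest in replicate 1, the library that stood apart on the first component, and SMED30019979 was lowest in replicate 2 (23.0 RPKM, others 28.7 to 29.5). In unc22 worms on day 12, SMED30018339 was lowest in replicate 4 (15.6 RPKM, others 16.8 to 17.0), SMED30002026 in replicate 1 (6.08 RPKM, others 8.58 to 8.63) and SMED30010082 in replicate 1 (1.29 RPKM, others 1.66 to 1.69), while SMED30017923 was highest in replicate 1 (4.15 RPKM, others 2.60 to 2.76). In unc22 worms on day 6, SMED30024954 was highest in replicate 4 (56.3 RPKM, others 44.8 to 46.4) and SMED30018926 in replicate 1 (1.97 RPKM, others 1.45 to 1.52).

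The zfp1 effect differed between day 12 and day 6 by the test of the difference itself (limma, added after the data were seen) in 7 members. The differences of day 12 less day 6 on the log2 scale were -1.82 in SMED30031294, -0.88 in SMED30018339, -0.70 in SMED30010082, -0.63 in SMED30014221, -0.55 in SMED30029581, -0.42 in SMED30006353 and -0.29 in SMED30002671.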

How the results depend on the processing

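Selected member differences were followed under every alternative, not those of all named members and none for zfp1 day 12 against day 6. Of these values, 1100 stayed on their side of the threshold, 72 lost a call, 2 gained one and 0 turned. Not every direction held among all 62 members. Those below 0 for zfp1 against unc22 on day 12 numbered 44, and 41 with quantile normalization. Of 220 member counts under alternatives, 208 stayed within 1.5 times. The others were small counts of members called higher. For zfp1 against unc22 on day 12 this count was 1, but 3 with pseudocount 1, with a mean of at least 2 RPKM, with quantile normalization and with median ratio scaling, 2 with voom, and 1 to 2 without single libraries. With voom it was 1 instead of 0 for zfp1 against unc22 on day 6, 6 instead of 3 for zfp1 day 12 against day 6 and 1 instead of 0 for the change in the zfp1 effect. Without single libraries the members called lower numbered 60 to 61 for pax5 against zfp1 and 62 for pax5 against unc22 on day 12. For zfp1 against unc22 they numbered 1 on day 6 and 13 to 16 on day 12, for zfp1 day 12 against day 6 they numbered 17 to 21 (3 to 4 higher), and for the change in the zfp1 effect 5 to 8. A mean of at least 2 RPKM left 52 members to test. Over all tested features, 14 of 220 counts moved by more than 1.5 times. The shares called lower and higher ran from 6.22% to 10.7% and 8.20% to 15.2% for pax5 against zfp1 on day 12, and from 3.26% to 5.43% and 1.17% to 4.20% for pax5 against unc22. For zfp1 against unc22 they ran from 0.234% to 1.08% and 0.172% to 1.14% on day 6, and from 6.31% to 11.2% and 3.72% to 8.91% on day 12. For zfp1 day 12 against day 6 they ran from 8.12% to 16.7% and 6.74% to 17.0%, and for the change in the zfp1 effect from 2.01% to 3.95% and 0.472% to 1.92%. The 466 features called higher in pax5 than in unc22 worms became 282 without pax5 day 12 replicate 1, 266 without unc22 day 12 replicate 4 and 952 in a fit restricted to the compared groups. For zfp1 against unc22 on day 6, the 143 called lower became 80 without zfp1 replicate 4 and 93 without unc22 replicate 4, and the 165 called higher 91 without zfp1 replicate 1 and 108 without unc22 replicate 3. In the group pairs compared, deviations of libraries with equal replicate numbers had correlations of -0.247 to 0.0658. Between pax5 and unc22 on day 12, 5 libraries still matched their own number best. Whether the numbers mark a shared batch was not tested further. The replicate block gave 61 and 62 lower for pax5 against zfp1 and unc22 on day 12. For zfp1 against unc22 it gave 1 and 17 lower on days 6 and 12. It gave 19 lower for zfp1 day 12 against day 6 and 6 for the change in the zfp1 effect. The causes were not tested. Depth limits the members with at most 3 reads in every pax5 library, 5 on day 12 and 11 on day 18.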
